A study of Mus musculus with 4 samples.

Results

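The IL-6, IL-10 and STAT3 axis was followed here through 10 genes in mouse bone marrow-derived macrophages, macrophages grown from bone marrow precursors in dishes. Members were found by gene symbol or transcript accession: 18 of the 56605 probes on the array matched, and they stand for 10 of the 25107 genes that could be named. They are the cytokines Il6, Il10, Osm and Lif, the receptor subunits Il6ra, Il6st, Il10ra and Il4ra, the transcription factor Stat3 and its feedback inhibitor Socs3.

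Interleukin-6, oncostatin M and leukaemia inhibitory factor each bind a receptor complex that holds gp130, the product of Il6st, while interleukin-10 binds a separate receptor made from Il10ra and Il10rb. Both routes activate JAK kinases, which phosphorylate STAT3, and STAT3 moves to the nucleus and switches on genes such as Socs3. The SOCS3 protein binds gp130 and stops IL-6 signals while leaving IL-10 signals in place, and in macrophages IL-10 is known for holding down inflammatory genes.

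The study compared RNA of Batf2-/- and wild-type (WT) macrophages, with and without R848, a small-molecule agonist of TLR7. BATF2 is a transcription factor of the AP-1 family. There were 4 groups of 1 array each: Batf2-/- with R848, Batf2-/- untreated, WT with R848 and WT untreated. All cells came from male C57BL/6J mice, were grown with 3 ng/ml M-CSF, had their medium changed on day 3 and were harvested on day 5. For the treated groups R848 was used at 100 ng/ml, with 8 h between its addition and sampling per the labels, and the untreated groups carry the label 0 h. The number of mice behind an array is not given.

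Total RNA was labelled with 1 dye and read on 4 Agilent arrays that lie on 1 slide and share 1 scan. Levels are given as scaled signal, which is the processed spot intensity after the arrays were brought to a common 75th percentile of 264, so a level may be compared between arrays for 1 probe and not between probes. The share of probes well above background, as the scanner software marks it, ranged between 60.6% and 71.4% over the arrays. With 1 array a group there is no replicate and no test, and a gene is said to have risen or fallen when it differed by at least 2-fold. The only measure of error is the spread between spots: for probes printed 10 times, the SD of a log2 response was 0.047 in Batf2-/- cells and 0.056 in WT cells for bright probes (275 probes). It was 0.14 in Batf2-/- cells and 0.13 in WT cells for probes below the 75th percentile (14 probes). This covers error within an array and leaves out variation between cultures.

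The Batf2 probe served as a check of the labels. Batf2 had a scaled signal of 11.3 in Batf2-/- cells with R848 (not well above background), 26.9 in Batf2-/- cells untreated, 94.4 in WT cells with R848 and 32.4 in WT cells untreated. The knockout was thus at least 6.2-fold lower with R848, while the untreated arrays differed by 1.21-fold. The R848 difference, -2.63 on the log2 scale in the main setting, ran from -3.06 to -1.05 over 6 alternative settings. The sources used here do not say whether the deletion covers the probed sequence. All 8 macrophage markers looked at (among them Csf1r, Adgre1 and Cd68) were well above background on every array. Ly6g, Cd3g, Trac and Ncr1 were not well above background on any. The other 4 of 5 neutrophil markers (Camp, Ltf, S100a8 and Retnlg) and the other 2 of 4 T cell markers (Cd3e and Cd5) were well above background on every array. All 4 B cell markers were too. At least 4 of 5 fibroblast or stromal cell markers and 3 of 4 dendritic cell markers were on each array. Of 3 NK cell markers, at least 1 was.

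Of the 18 member probes, 17 exceeded background clearly on 1 array or more and 14 on all 4. Each was printed as 1 spot per array. A gene is described by its brightest probe, and where a further probe exists its value is given too. Where in the transcript each probe lies was not analysed here.

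**Figure D1:**
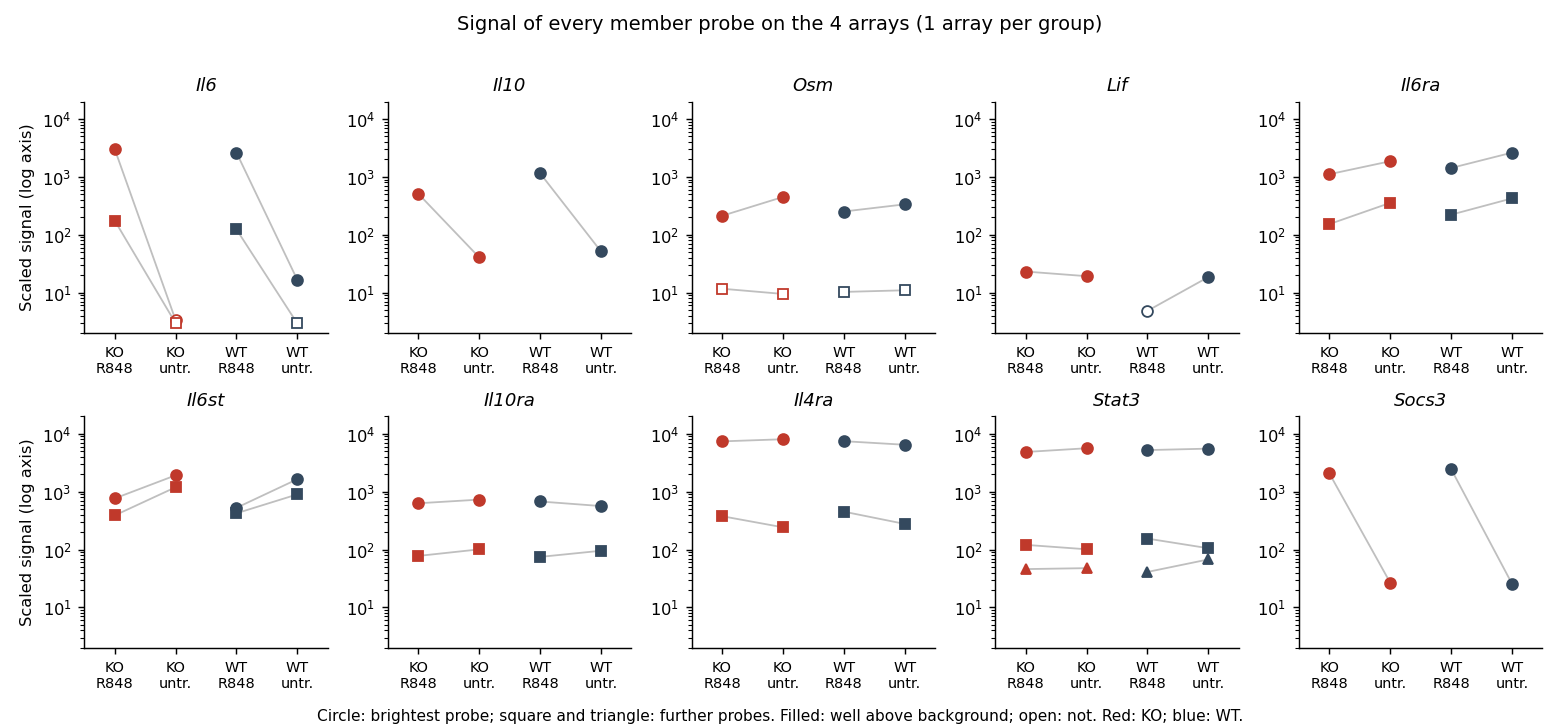
Scaled signal (log axis) of every member probe on the 4 arrays, 1 point per array, with Batf2-/- (KO) in red and WT in blue; circles are the brightest probe, squares and triangles further probes, and open symbols are not well above background. Il6, Il10 and Socs3 stand far higher with R848 than untreated in both genotypes, and Il10 is the member whose R848 signals lie farthest apart between genotypes among those measured on all arrays (509.9 in KO against 1152 in WT).

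Among the cytokines, Il6 and Il10 rose with R848 in both genotypes. Il6 (chromosome 5, band 5qB1), which encodes the inflammatory cytokine that gives the pathway its name, had a scaled signal of 3033 in Batf2-/- cells with R848, 3.36 in Batf2-/- cells untreated, 2631 in WT cells with R848 and 16.6 in WT cells untreated. Both R848 arrays were bright, and the untreated knockout was not well above background. For such a probe the fold is a lower bound: the dim array takes the lowest signal of any probe above background there, unless its own signal is higher. Il6 rose at least 261-fold in Batf2-/- cells and 159-fold in WT cells. The WT value ranked 4 from the top of 17356 genes measured on both WT arrays. The size of the rise depended on the processing, so the lower bound holds for the main setting only. In Batf2-/- cells the log2 response of 8.03 ran from 5.56 to 9.82 over 7 alternative settings. In WT cells the value of 7.31 ran from 5.11 to 7.47 over 8.

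A dimmer Il6 probe read 176 and 2.97 in Batf2-/- cells with R848 and untreated, and 124 and 2.92 in WT cells with R848 and untreated. Neither untreated array was well above background with it, and the rise was at least 15.2-fold in Batf2-/- cells and at least 10.8-fold in WT cells. Both probes went the same way in both genotypes.

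The promoter of Il6 is shown because Il6 was among the most strongly raised genes of the array, as the 250 bases before the RefSeq start (GRCm38.p6, chr5:30012864-30013113, plus strand, 5′ to 3′):
Il6: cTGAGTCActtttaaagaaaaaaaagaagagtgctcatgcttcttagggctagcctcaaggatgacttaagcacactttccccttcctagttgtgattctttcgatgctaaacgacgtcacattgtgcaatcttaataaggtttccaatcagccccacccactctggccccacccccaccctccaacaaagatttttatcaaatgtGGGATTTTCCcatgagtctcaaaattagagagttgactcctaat
Capitals mark matches to 2 of 3 consensus forms searched on both strands, AP-1 (TGANTCA) and kappa B (GGGANTTTCC), the letters bound by AP-1 factors and by NF-kappa B. The third form was the STAT site (TTCNNNGAA). In Il6 the AP-1 match TGAGTCA covers bases -249 to -243 and the kappa B match GGGATTTTCC bases -44 to -35, and no STAT match lies in the window. Over all 32851 windows of 300 bases, 7.81% held the AP-1 form, 0.411% the kappa B form and 8.30% the STAT form. A match is a description of letters and was not tested as a binding site.

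Il10 (chromosome 1, band 1qE4), the anti-inflammatory cytokine, has 1 probe. Its scaled signal was 509.9 in Batf2-/- cells with R848, 40.5 in Batf2-/- cells untreated, 1152 in WT cells with R848 and 51.4 in WT cells untreated, well above background on every array. The untreated arrays lay near each other and the R848 arrays apart. Il10 rose 12.6-fold in Batf2-/- cells (rank 71 from the top of 18352 genes measured on both arrays) and 22.4-fold in WT cells (rank 25 of 17356). Over the 8 alternative settings the log2 response ran from 2.48 to 3.8 in Batf2-/- cells and from 3.48 to 4.64 in WT cells.

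Osm (chromosome 11, band 11qA1), which encodes oncostatin M, had a scaled signal of 212 in Batf2-/- cells with R848, 449 in Batf2-/- cells untreated, 252 in WT cells with R848 and 335 in WT cells untreated. Signals with R848 were the lower ones in both genotypes. Osm fell 2.12-fold in Batf2-/- cells, a call that ended with another background correction (log2 difference -0.89) and with arrays centred on their medians (-0.94), and was 1.33-fold lower in WT cells. A second Osm probe was not well above background on any array.

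Lif, the neighbouring gene on chromosome 11, encodes leukaemia inhibitory factor and was dim throughout. It read 23.1 in Batf2-/- cells with R848, 19.2 in Batf2-/- cells untreated, 4.83 in WT cells with R848 (not well above background) and 18.6 in WT cells untreated. Its log2 response was 0.27 in Batf2-/- cells, within 2-fold, and no fold can be given for WT cells, where the lowest signal well above background on the R848 array (18.6) was close to the untreated level.

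The receptor subunits gave no increases. Il6ra (chromosome 3, band 3qF1), the chain that binds IL-6 itself, had a scaled signal of 1111 in Batf2-/- cells with R848, 1862 in Batf2-/- cells untreated, 1422 in WT cells with R848 and 2622 in WT cells untreated. A second probe read 152, 355, 222 and 424 in the same order. Every R848 signal was below its untreated partner. The log2 response was -0.74 in Batf2-/- cells and -0.88 in WT cells, within 2-fold, and with the second probe -1.22 in Batf2-/- cells and -0.94 in WT cells.

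Il6st (chromosome 13, band 13qD2.2), which encodes gp130, the signalling chain shared by IL-6, OSM and LIF, fell in both genotypes. Its scaled signal was 765 in Batf2-/- cells with R848, 1920.2 in Batf2-/- cells untreated, 527 in WT cells with R848 and 1646 in WT cells untreated. A second probe read 389, 1194, 424 and 899.9 in the same order. With both probes the R848 arrays were the dim ones. The fall was 2.51-fold in Batf2-/- cells and 3.12-fold in WT cells, or 3.07-fold and 2.12-fold in the same order with the second probe. Which genotype fell further thus depended on the probe.

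The promoter of Il6st is printed for contrast with Il6, as a member that fell (GRCm38.p6, chr13:112463820-112464069, plus strand, 250 bases before the RefSeq start, 5′ to 3′):
Il6st: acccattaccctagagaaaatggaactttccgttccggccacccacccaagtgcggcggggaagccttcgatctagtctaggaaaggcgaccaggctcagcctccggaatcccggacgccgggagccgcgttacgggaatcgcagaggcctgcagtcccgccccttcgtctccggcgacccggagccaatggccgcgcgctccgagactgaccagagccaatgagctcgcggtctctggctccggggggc
None of the 3 forms is in its window, so it has no capitals. Base composition differed as well: G and C made up 42.8% of the printed Il6 sequence and 66% of that of Il6st. In the window of Socs3, which rose as Il6 did, they made up 71.6%, so composition did not follow direction over these members.

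Il10ra (chromosome 9, band 9qA5.2), the chain that binds IL-10, stayed within 2-fold. It read 631 in Batf2-/- cells with R848, 730.4 in Batf2-/- cells untreated, 678 in WT cells with R848 and 565 in WT cells untreated. Its log2 response was -0.21 in Batf2-/- cells and 0.26 in WT cells, but with the second probe -0.38 and -0.35 in the same order.

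Il4ra (chromosome 7, band 7qF3) encodes the IL-4 receptor chain, which signals through STAT6 and which IL-6 and IL-10 are known to raise in mouse macrophages. It read 7414 in Batf2-/- cells with R848, 8068 in Batf2-/- cells untreated, 7472 in WT cells with R848 and 6479 in WT cells untreated, all within 2-fold of each other. A second probe read 378, 243, 453 and 278 in the same order. The second probe was brighter with R848 in both genotypes (log2 response 0.64 in Batf2-/- cells and 0.70 in WT cells), also within 2-fold.

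Stat3 (chromosome 11, band 11qD) itself was near level at the transcript. Its scaled signal was 4859 in Batf2-/- cells with R848, 5638 in Batf2-/- cells untreated, 5239.7 in WT cells with R848 and 5552 in WT cells untreated. The log2 response was -0.21 in Batf2-/- cells and -0.08 in WT cells, and 2 dimmer probes lay between -0.05 and 0.25 in Batf2-/- cells and between -0.72 and 0.55 in WT cells, with no call. The arrays measure transcripts and hold no value for STAT3 phosphorylation.

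Socs3 (chromosome 11, band 11qE2), whose transcription STAT3 switches on, rose in both genotypes. It had a scaled signal of 2074 in Batf2-/- cells with R848, 26.8 in Batf2-/- cells untreated, 2464 in WT cells with R848 and 25.7 in WT cells untreated. The untreated arrays were nearly equal and both R848 arrays were bright. Socs3 rose 77.5-fold in Batf2-/- cells (rank 11 of 18352) and 95.9-fold in WT cells (rank 8 of 17356). Over the 8 alternative settings its log2 response, 6.28 in Batf2-/- cells and 6.58 in WT cells, varied in size. It ran from 4.66 to 6.42 in Batf2-/- cells and from 5.07 to 6.74 in WT cells.

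The promoter of Socs3 holds the only STAT match among the member windows (GRCm38.p6, chr11:117969367-117969616, minus strand, 250 bases before the RefSeq start, 5′ to 3′):
Socs3: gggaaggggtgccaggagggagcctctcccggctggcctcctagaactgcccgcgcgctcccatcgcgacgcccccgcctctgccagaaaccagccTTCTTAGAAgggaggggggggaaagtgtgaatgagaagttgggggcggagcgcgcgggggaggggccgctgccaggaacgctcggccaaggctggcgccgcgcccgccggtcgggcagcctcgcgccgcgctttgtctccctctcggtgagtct
The match in capitals, TTCTTAGAA, covers bases -154 to -146. RefSeq windows were at hand for 7 of the 10 members. The STAT form was thus in 1 of 7 windows, against 8.30% of all windows, which is a description only. Lif held an AP-1 match, TGACTCA, at bases -228 to -222, and no form was found for Il6ra, Il6st, Il4ra and Stat3, which says only that these letters are not in these windows.

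**Figure D2:**
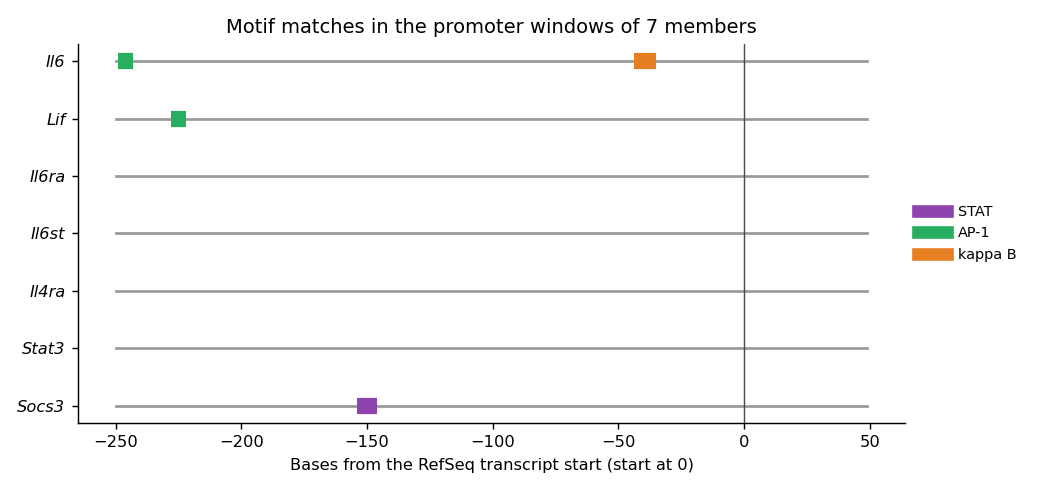
Positions of matches to the STAT, AP-1 and kappa B forms in the promoter windows of 7 members, in bases from the RefSeq transcript start at 0. Il6 carries an AP-1 and a kappa B match, Lif an AP-1 match and Socs3 a STAT match, and the other 4 windows carry none.

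Counted over the members, 3 of 10 rose with R848 in Batf2-/- cells (Il6, Il10 and Socs3), against 6.84% of all 19840 genes compared, and 2 fell (Osm and Il6st), against 6.58% of all genes. In WT cells the same 3 of 9 rose, against 6.19% of 18762 genes, and Il6st alone fell, against 7.01%. The median log2 response of the members was -0.17 in Batf2-/- cells and 0.21 in WT cells, with -0.06 and -0.03 over all genes in the same order. The increases lay in 2 cytokines and the feedback inhibitor. In bulk RNA, fewer cells of a type and less RNA per cell cannot be told apart.

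**Figure D3:**
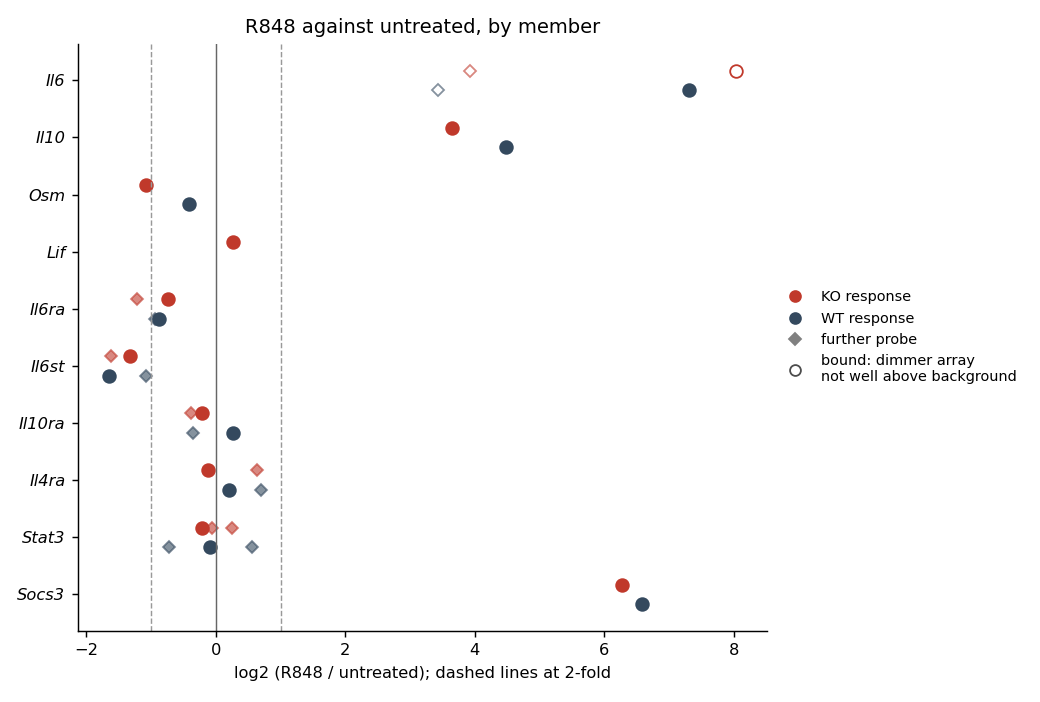
Log2 response to R848 (R848 over untreated) of each member in Batf2-/- (KO, red) and WT (blue) cells, 1 difference between 2 arrays per point; diamonds are further probes, open symbols lower bounds, and dashed lines mark 2-fold. Il6, Il10 and Socs3 lie far to the right in both genotypes and Il6st to the left of the 2-fold line with both probes.

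Batf2-/- and WT cells were then set against each other under each condition. Il10 was the member with a value past 2-fold between genotypes, while the bounds of Lif with R848 and Il6 untreated leave such a difference possible. With R848 Il10 was 2.26-fold lower in Batf2-/- cells (log2 difference -1.18), place 239 from the bottom of 17298 genes. That is 1 of 10 members lower, against 2.45% of all 18768 genes, and 0 of 10 higher, against 2.34%. The log2 difference stayed between -1.22 and -1.12 under the 8 alternative settings, and the spot spread was 0.051 (SD, log2) for probes averaging above the 75th percentile over the 4 arrays and 0.16 for those below. Il10 averaged below it over the 4 arrays and lay above it on both arrays with R848. Untreated, Il10 differed by -0.34 on the log2 scale.

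The other strongly raised members were close between genotypes. With R848, the log2 difference of Batf2-/- over WT was 0.21 for Il6 (0.51 with the second probe) and -0.25 for Socs3. The receptors lay between -0.36 and 0.54 with their brightest probes, with Il6st at 0.54 by its brightest probe and at -0.12 by the second. Stat3 was at -0.11 and Osm at -0.25. Lif was at least 1.24-fold higher in Batf2-/- cells, since WT cells with R848 were not well above background.

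Untreated, 0 of 10 members were higher and 0 of 10 lower at 2-fold, against 2.8% higher and 3.18% lower of all 20300 genes. Il6 was at least 1.43-fold lower in Batf2-/- cells, where its probe was not well above background. The remaining members lay between -0.49 (Il6ra) and 0.42 (Osm) on the log2 scale.

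**Figure D4:**
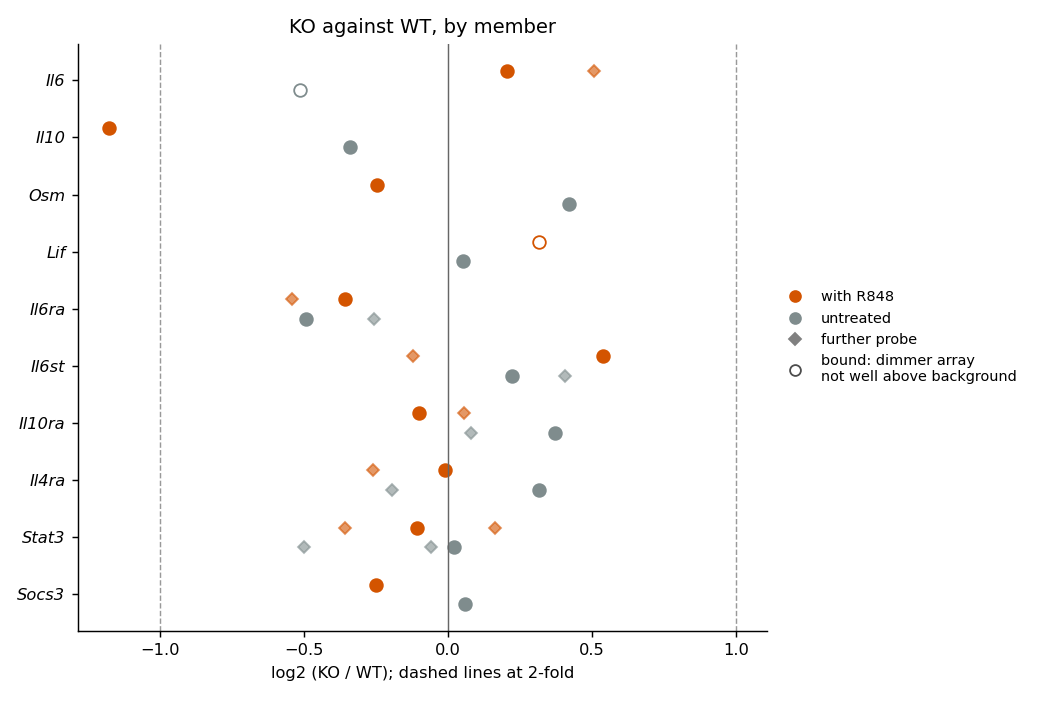
Log2 difference of Batf2-/- (KO) over WT for each member, with R848 (orange) and untreated (grey), 1 difference between 2 arrays per point; diamonds are further probes, open symbols bounds, and dashed lines mark 2-fold. Il10 with R848, at -1.18, is the 1 member past the 2-fold line.

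Markers of some other cells also differed between the genotypes. The summed scaled signal of 8 basophil and mast cell markers was 219 in Batf2-/- cells with R848, 449 in Batf2-/- cells untreated, 2677 in WT cells with R848 and 5619 in WT cells untreated. Of those with a value, 6 of 7 were lower at 2-fold in Batf2-/- cells with R848, against 2.45% of all genes, and 6 of 8 untreated, against 3.18%. For 5 granulocyte precursor markers the sums were 609.5, 1787, 5301 and 24095 in the same order, the last with 14489 from Mpo alone. Under both conditions 5 of 5 granulocyte precursor markers were lower. The part of these cells in the Il10 difference was not tested.

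The difference between the responses, Batf2-/- minus WT, had no value past 2-fold among the 9 members that have one, with 0 higher, against 3.14% of 18456 genes, and 0 lower, against 2.5%. For Il6 it was at least 0.72 on the log2 scale, a lower bound that leaves a difference of 2-fold or more possible, since untreated Batf2-/- cells were not well above background. For Il10 it was -0.83 on the log2 scale, the lowest of the members, beside a spot spread of 0.072 for probes averaging above the 75th percentile over the arrays and 0.23 for those below, and it passed 2-fold with another background correction (-1.0). For Osm it was -0.67 and for Socs3 -0.31. These comparisons share arrays with the ones above.

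The other genes of the pathway were described through a list of 65 genes in 6 roles. In Batf2-/- cells 15 of 62 with a value rose with R848 and 5 fell, and in WT cells 15 of 62 rose and 4 fell. Over all genes 6.84% rose and 6.58% fell in Batf2-/- cells, and 6.19% rose and 7.01% fell in WT cells, so the share of the list that fell was near that of all genes. The median log2 response of the list was 0.11 in Batf2-/- cells and 0.18 in WT cells, with -0.06 and -0.03 over all genes in the same order.

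Among 10 further cytokines, Ebi3, a subunit of IL-27 and IL-35, was the 1 that rose. It read 3292 in Batf2-/- cells with R848, 612 in Batf2-/- cells untreated, 5471 in WT cells with R848 and 863 in WT cells untreated, a rise of 5.38-fold in Batf2-/- cells and 6.34-fold in WT cells. On at least 1 array this spot lies in an area where many dim spots read high, and without such areas a value was left for Batf2-/- cells only, past 2-fold.

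Of 10 further receptors and receptor-cleaving proteases, Adam17 and Il13ra1 rose in both genotypes, Lifr and Osmr fell in Batf2-/- cells and Lifr fell in WT cells. Adam17, the protease that sheds the IL-6 receptor from the cell surface, was 3.10-fold higher with R848 in Batf2-/- cells and 2.47-fold higher in WT cells. Il13ra1, which pairs with Il4ra, was 2.38-fold higher with R848 in Batf2-/- cells and 2.04-fold higher in WT cells, and the WT call ended with another background correction (log2 difference 0.75). Lifr, the LIF receptor, fell 2.03-fold in Batf2-/- cells and at least 6.80-fold in WT cells by its brightest probe. Of its 3 probes this 1 gave a fall in each genotype, and a probe without a value was not counted. Both calls held with the mean over the probes that had a value. The Batf2-/- call ended with median centring (log2 difference -0.88) and with quantile normalization (-0.90). Osmr, the OSM receptor, read 19.8 in Batf2-/- cells with R848, 71.2 in Batf2-/- cells untreated, 21.2 in WT cells with R848 and 27 in WT cells untreated. The untreated knockout array stood above the other 3, and the fall was 3.59-fold in Batf2-/- cells, with a log2 response of -0.35 in WT cells.

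Of 7 further kinases and STATs, Jak2 alone rose in both genotypes and the other 6, among them Jak1 and Tyk2, stayed within 2-fold. Jak2, a kinase bound to gp130, was 3.60-fold higher with R848 in Batf2-/- cells and 2.80-fold higher in WT cells, the same way with both of its probes.

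Of 8 further inhibitors, 7 had a value, and of these 4 rose and 1 fell in Batf2-/- cells, while 2 rose and 0 fell in WT cells. Socs1, a sister of Socs3 that blocks JAK kinases, read 193 in Batf2-/- cells with R848, 51.1 in Batf2-/- cells untreated, 101 in WT cells with R848 and 40.0 in WT cells untreated. It rose 3.78-fold in Batf2-/- cells and 2.52-fold in WT cells, and the WT call ended with another background correction (log2 difference 0.71). Il1rn, the IL-1 receptor antagonist, is counted here although it acts at the IL-1 receptor. It rose 3.56-fold in Batf2-/- cells and 8.77-fold in WT cells. Cish and Ptpn6 rose 3.27-fold and 2.64-fold in Batf2-/- cells, and both had a log2 response of 0.97 in WT cells, just under 2-fold. The Cish call ended with another background correction (log2 difference 0.71). Pias3, an inhibitor of STAT3, fell at least 2.18-fold in Batf2-/- cells, with 5 of 7 alternative settings under 2-fold.

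Of 20 genes known as targets of STAT3 or IL-10, 5 of 19 rose in Batf2-/- cells and 5 of 20 in WT cells: Bcl3, Pim1, Cebpb, Cebpd and Slpi in both. Slpi, a secreted protease inhibitor, rose 9.65-fold in Batf2-/- cells and 5.29-fold in WT cells. Bcl3, a nuclear partner of NF-kappa B, rose 3.34-fold in Batf2-/- cells and 4.54-fold in WT cells, but 1 of its 2 probes went the other way in WT cells, and the mean over both ended that call (log2 difference 0.53). The survival kinase gene Pim1 rose 2.34-fold in Batf2-/- cells and 3.16-fold in WT cells. Cd163, a haemoglobin scavenger receptor, fell at least 7.71-fold in WT cells. Other known targets, among them Sbno2, Nfil3, Bcl6, Zfp36 and Il21r, were within 2-fold in both genotypes.

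Of 10 genes that control Il6 and Il10 at the promoter or the mRNA, 2 rose and 2 fell in Batf2-/- cells, and 4 rose and 2 fell in WT cells, where Maf and Prdm1 joined Nfkbiz and Zc3h12a. Nfkbiz, whose product is needed for Il6 transcription in macrophages, read 4743 in Batf2-/- cells with R848, 159.7 in Batf2-/- cells untreated, 7114 in WT cells with R848 and 219.7 in WT cells untreated, a rise of 29.7-fold in Batf2-/- cells and 32.4-fold in WT cells. Zc3h12a, the RNase that degrades Il6 mRNA, rose 13.8-fold in Batf2-/- cells and 7.87-fold in WT cells. Bhlhe40, a repressor of Il10, fell 3.30-fold in Batf2-/- cells and 3.28-fold in WT cells, and Crem, a transcription factor that responds to cyclic AMP, fell 2.64-fold in Batf2-/- cells and 3.02-fold in WT cells. Of the 5 Crem probes, 3 went that way in each genotype, and the mean over probes ended the call in Batf2-/- cells (log2 difference -0.69). With another background correction the falls of Osmr, Lifr and Crem in Batf2-/- cells and of Crem and Bhlhe40 in WT cells were under 2-fold.

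Maf, a transcription factor that activates Il10, read 5479.7 in Batf2-/- cells with R848, 2899.5 in Batf2-/- cells untreated, 9546 in WT cells with R848 and 3216 in WT cells untreated. It was highest in WT cells with R848, as were Il10 and other genes of the list, among them Nfkbiz, Ebi3 and Zfp36. A part of Maf in the Il10 difference was not tested. The log2 response of Maf was 0.92 in Batf2-/- cells, within 2-fold, and 1.57 in WT cells, where the mean over its 3 probes gave 0.84. With R848 Maf was lower in Batf2-/- cells by all 3 probes, with a log2 difference of -0.80, within 2-fold.

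**Figure D5:**
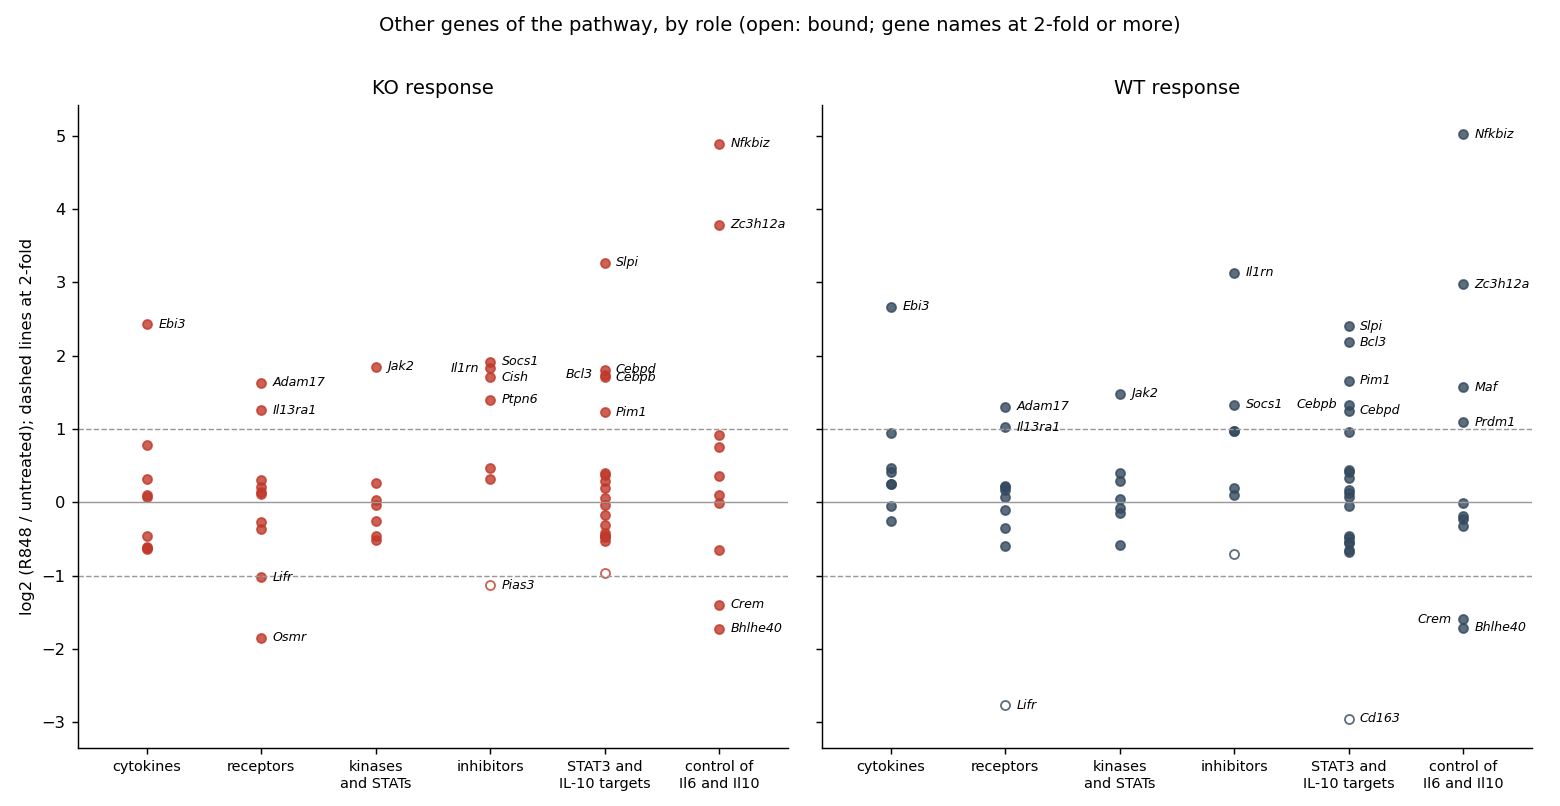
Log2 response to R848 of the other genes of the pathway by role, in Batf2-/- (KO, left) and WT (right) cells, 1 gene per point; open points are bounds, dashed lines mark 2-fold, and genes past 2-fold are named. Nfkbiz tops both panels, at 4.89 in KO and 5.02 in WT.

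Between genotypes, the counts on the list were near the shares of all genes, which were 2.34% higher and 2.45% lower with R848 and 2.8% higher and 3.18% lower untreated. With R848, 1 of 60 was higher in Batf2-/- cells (Il13ra1, log2 difference 1.02, under 2-fold with 3 of the alternative settings) and 1 lower (Arg1, the arginine-splitting enzyme, at least 2.60-fold). Untreated, 2 of 64 were higher in Batf2-/- cells (Osmr, 2.64-fold, and Il1rn, 2.03-fold) and 3 lower (Slpi, 2.13-fold, Cd163, 5.06-fold, and Arg1, at least 2.05-fold). With another background correction the calls of Il13ra1, Arg1, Osmr, Il1rn and Slpi all ended. For Arg1, neither Batf2-/- array was well above background. In the difference between the responses, 2 of 61 were higher (Lifr and Cd163, both resting on bounds), against 3.14% of all genes. There, 4 of 61 were lower (Il20, Il22, Osmr and Il1rn), against 2.5%. Il1rn, at -1.30 on the log2 scale, stayed past 2-fold with all 8 alternative settings. The other calls of this comparison ended with another background correction.

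The genes most alike in pattern to each member were taken as the 3 with the smallest root mean square difference over the 4 arrays, among 14356 genes measured on all of them. For Il10 they were Cdc42ep2 (0.31 log2 units), Cp (0.32) and Batf (0.36). Cp, which encodes ceruloplasmin, was 2.13-fold lower in Batf2-/- cells with R848. For Socs3 they were Adamts4 (0.10), Tarm1 (0.32) and Ccl3 (0.32), and for Il6 they were Marco (0.64), Acod1 (0.76) and Cxcl1 (0.84), with the dim untreated knockout value of Il6 entering as measured. For Il6st they were Fgfr1 (0.028), Gfod2 (0.034) and Xpr1 (0.053). With 4 arrays and so many candidates a small difference is a description only.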

How the data were processed

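Total RNA of 4 macrophage samples was measured on 1-colour Agilent arrays. The authors deposited spot intensity on a linear scale, read out by Agilent Feature Extraction (version 11.5.1.1, per the file headers), with background and a spatial trend taken off within each array and no scaling between arrays. A deposited table of the authors holds the same intensity times 1 factor per array (3.72 to 4.13), within 1% for 100% of its spots, and its log2 ratios were not used. The sources used here do not say how those factors were set or what scale they refer to. The headers annotate the probe grid to mm9.

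Spots marked as outliers were left out (70 to 115 per array), and no spot was saturated. The log2 intensity was centred on each array's 75th percentile, and spots of a probe were averaged. The software marks spots well above background. A probe was taken as such where at least 0.5 of its spots had the mark, and 1 such array sufficed to enter a comparison. Genes were taken at their brightest probe. Of 56605 probes, 40458 were named, 28867 through Entrez IDs, 10230 through accessions, 75 through symbols and 45 through synonyms of GRCm38.p6 and 1241 by the symbol in the file. With 1 array a group no test was made, and precision is limited by the number of arrays. The named genes are all members, the members of a pathway list past 2-fold and Batf2. Cell type markers and the genes most alike to a member (provisional names left out) are named too. Some list genes within 2-fold and some neighbours on the chromosome are given as examples, a few of them singled out after their values were seen. 1 further gene was taken off the pathway list and is not reported here. Members and lists were chosen with earlier results of these data known.

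Alternatives were normexp background correction (limma 3.58.1 in R 4.3.3, offset 50, on the median spot signal, since the files used hold no mean spot signal), median centring, quantile normalization, the authors' table, no filter, probes well above background on every array compared, the mean over probes, and leaving out areas where dim spots read high. Python 3.11.15, pandas 2.3.3 and numpy 2.4.6 were used, and the code was tested on simulated data. A planned search of receptor proteins was not run, and promoters of Il10, Osm and Il10ra were not analysed here.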

Additional observations from a re-analysis of the deposited data

Results flagged for a closer look

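The response of Il10ra to R848 had opposite signs in the genotypes by its brightest probe, -0.21 in Batf2-/- cells and 0.26 in WT cells on the log2 scale, each larger than the spread between spots. With the second probe both were negative (-0.38 in Batf2-/- cells and -0.35 in WT cells). The response of Il4ra was likewise negative in Batf2-/- cells (-0.12) and positive in WT cells (0.21) by its brightest probe, and was positive in both with the second (0.64 in Batf2-/- cells and 0.70 in WT cells). With 1 array a group, neither difference was tested, and all 4 values lie within 2-fold.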

How the results depend on the processing

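No paired analysis was possible because each group has 1 array and the labels give no replicate numbers shared between groups. The 48 member values were set against 8 alternatives, 380 values in all. The sign changed in 13, none of them past 2-fold, the side of the 2-fold line changed in 6, and 0 called values reversed. Il6, Il10, Socs3 and Il6st kept their calls in both genotypes, and Il10 its call between genotypes with R848, under each alternative that gave a value. Members lower in the Batf2-/- response were 1 with normexp and with median centring (Osm lost), against 2. Without a filter, members lower in the WT response were 2, members higher in Batf2-/- cells with R848 were 1, members lower untreated were 1, and members higher in the difference of responses were 2. With normexp 1 member (Il10) was lower in that difference.

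On the pathway list, genes lower in the Batf2-/- response were 5, but 1 with normexp and 3 with median centring, quantile normalization or the mean over probes. Those lower in the WT response were 4, but 2 with normexp or when every array had to be above background. Between genotypes with R848, the 1 higher gene became 0 with normexp, median centring or quantile normalization and 3 without a filter. The 1 lower gene became 0 with normexp, the authors' table or the filter on every array, and 2 without a filter. Untreated, the 2 higher became 0 with normexp and 1 with median centring, and the 3 lower became 1 with normexp or the authors' table. In the difference of responses, the 2 higher became 0 with normexp or the filter on every array and 1 with the authors' table, and the 4 lower became 1 with normexp. The response of Cd163 in Batf2-/- cells minus that in WT cells, 1.99, turned to -0.044 without bounds, since its R848 arrays were not well above background. Of 55 calls of list genes and Batf2, 31 stayed past 2-fold under every alternative that gave a value.

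Over all genes, normexp with its offset gave 810 higher and 547 lower in the Batf2-/- response (1357 and 1305 otherwise) and 702 and 575 in WT cells (1162 and 1316). It gave 104 and 148 between genotypes with R848 (440 and 459), 111 and 219 untreated (569 and 646, where the share higher was 33.6% in place of 46.8%) and 140 and 99 for the difference (580 and 461). Median centring moved the median of all genes from -0.06 to 0.09 in the Batf2-/- response and from -0.03 to 0.13 in the WT response, and the share of calls that were higher to 63.1% in place of 51.0% and to 61.0% in place of 46.9% in the same order. By the authors' values 486 were higher and 321 lower between genotypes with R848, 60.2% in place of 48.9%. Without a filter the counts were 1810 and 2279, 1527 and 2261, 1377 and 839, 1481 and 1179, and 1729 and 1761 in the order of comparisons above, and with every array above background 259 and 335 with R848 and 323 and 497 untreated between genotypes. The cause of these shifts was not tested.

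Signal over background limits Lif, Il6 untreated and the second probes of Il6 and Osm. Above all, 1 array a group leaves the variation between cultures unmeasured.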

Other observations

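Several members lie beside related genes on the chromosome. Il10 lies next to Il19, followed by Il20 and Il24, cytokines of the IL-10 family. Il19 had a log2 response of 0.78 in Batf2-/- cells and 0.25 in WT cells, and Il24 of 0.07 in Batf2-/- cells and -0.04 in WT cells, all within 2-fold. On its other side lies Mapkapk2, named after its values were seen, a kinase known to stabilise cytokine mRNAs. It rose in both genotypes, with a log2 response of 2.27 in Batf2-/- cells and 2.18 in WT cells, and differed by -0.12 between genotypes with R848. Stat5a and Stat5b, the neighbours of Stat3, had log2 responses between 0.03 and 0.40 over both genotypes, near level as Stat3 was. Il21r, next to Il4ra, had -0.46 in Batf2-/- cells and -0.54 in WT cells, and Il31ra, next to Il6st, had -0.28 in Batf2-/- cells and -0.52 in WT cells.

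Il20 and Il22, dim genes of the same family, had responses of opposite sign in the genotypes. Il20 read 20.4 in Batf2-/- cells with R848, 31.0 in Batf2-/- cells untreated, 30.8 in WT cells with R848 and 16.1 in WT cells untreated, a difference of responses of -1.54 on the log2 scale. For Il22 it was -1.09. Both fell under 2-fold with normexp background correction (-0.50 for Il20 and -0.64 for Il22), and neither was tested.

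Il11ra1, the receptor chain for IL-11, which signals through gp130, was named after its values were seen. It read 5452 in Batf2-/- cells with R848, 4726 in Batf2-/- cells untreated, 2910.1 in WT cells with R848 and 2585 in WT cells untreated. Both knockout arrays stood above both WT arrays, with a log2 difference of 0.91 with R848 and 0.87 untreated, within 2-fold.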
